A study of Mus musculus with 16 samples.

Results

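Chemokines are small secreted proteins that draw leukocytes along a gradient, and their receptors are 7-helix proteins of the leukocyte surface. The genes described here are the 49 whose name on the array was a Ccl, Ccr, Cxcl, Cxcr or Cx3c symbol followed by a number, taken by name alone, with no measured value in the rule. They had 66 probes on 75 spots, out of 27962 named genes. Each gene is given by its brightest probe in liver. Liver RNA came from 16 offspring of time-mated C57BL/6BomTac mice, 1 two-colour array per animal, against a universal mouse reference RNA. The dams had breathed clean filtered air (controls) or UV-Titan, which is titanium dioxide of nano size with a coated surface, at about 42 mg/m3 for 1 hour daily from gestation day 8 to 18, and the question was whether this altered gene expression in the offspring's liver. Female offspring were 3 controls and 5 mice of exposed dams (UV-Titan females), and male offspring were 4 controls and 4 mice of exposed dams (UV-Titan males). Offspring were killed either as newborns on postnatal day 2 or at weaning on postnatal days 23 to 24, and the labels do not say which of these ages the livers had, nor which mice shared a litter, so p-values measure the spread between these mice. RNA came from random sections of whole liver, in which fewer cells of a type and less RNA per cell cannot be told apart.

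The family is named for the spacing of the cysteines near the start of each protein: CC, CXC and CX3C. CC ligands such as Ccl2 mainly call monocytes and T cells, CXC ligands with an ELR motif such as Cxcl1 call neutrophils, and Cxcl9 and Cxcl10 are induced by interferon and call T and NK cells through Cxcr3. In the liver, Kupffer cells, sinusoidal endothelium, stellate cells and hepatocytes all can make chemokines, and platelets carry Cxcl4 and Cxcl7 in their granules.

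The label field of the liver channel named the green dye Cy3 and the labelling protocol the red dye Cy5. Red exceeded green at 12 hepatocyte markers, whose median log2 excess per array was 4.51 to 5.62, so red was read as liver and every ratio below is log2 of liver over reference, against the label field. Between 57.7% and 67.1% of the spots on an array passed as well above background in the liver channel. The number of saturated spots was 0. No dyes were swapped, so the level against the reference is described and not tested. Markers of the exocrine pancreas stood 2.84 and 1.74 log2 above the mean of the 16 arrays in male controls 31 and 33, and markers of skeletal muscle 2.02 in UV-Titan male 5. Where the difference of a family member turned or moved by over 1.5 times without male controls 31 and 33, or without UV-Titan male 5, that value is given beside it.

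Of the 49 genes, 31 (63.3%) were well above background in liver on all 16 arrays, against 56.5% of all named genes, and 10 (20.4%) on no array, against 25.7%. The 10 were the ligands Ccl1, Ccl11, Ccl20, Ccl22, Cxcl11, Cxcl13 and Cxcl15 and the receptors Ccr1, Ccr4 and Ccr10. In the reference, Ccr4 and Ccr10 were well above background on all 16 arrays, Ccl20 and Cxcl11 on 1, and the other 6 on none. For those 6, a transcript low in liver cannot be told apart from a probe that gave no signal. Ccl11 is the eotaxin that calls eosinophils, Ccl20 the ligand of Ccr6, Ccl22 a ligand of Ccr4, and Cxcl13 the B cell attractant of lymphoid follicles. A further 8 genes were well above background on some arrays: Ccl17 on 15, Cxcl14 on 14, Ccl12 on 11, Ccl8 and Ccl28 on 3, Cxcl2 and the scavenging receptor Ccrl1 on 2, and Ccr8 on 1. The 36 genes that passed on at least 3 arrays were tested, out of 18849 genes tested in all. By role these were 15 of 19 CC ligands, 9 of 13 CXC ligands, the CX3C ligand Cx3cl1 and 11 of 15 receptors, and Ccrl1 was not tested. The receptor-like Ccrl2 is counted among the 11 receptors here and below.

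Among tested genes, receptors stood mostly above the reference and CC ligands mostly below. The mean log2 ratio over 16 arrays was above 0 for 9 of 11 receptors, 6 of 9 CXC ligands and 5 of 15 CC ligands. Only signal in liver was required for testing, so these shares depend in part on that filter. The untested receptors Ccr4, Ccr8 and Ccr10 stood at -0.62, -0.63 and -0.71. All 3 were well above background in the reference on all 16 arrays. Ccr1, untested too, stood at -0.049 and was well above background on no array in either channel. Cxcl7 had a mean of 5.55, Ccl6 of 3.78 and Ccl9 of 2.53. At the other end stood Cx3cl1 at -3.60, Ccl2 at -3.54, Ccl7 at -2.96 and Cxcl1 at -2.80, although each of these was well above background in liver on all 16 arrays. Such a ratio also moves with how much of the transcript the reference held and gives no order of abundance between genes. Ccl19, Ccr2 and Cxcl9 were not well above background in the reference on any array, so their ratios understate the difference from it.

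**Figure D1:**
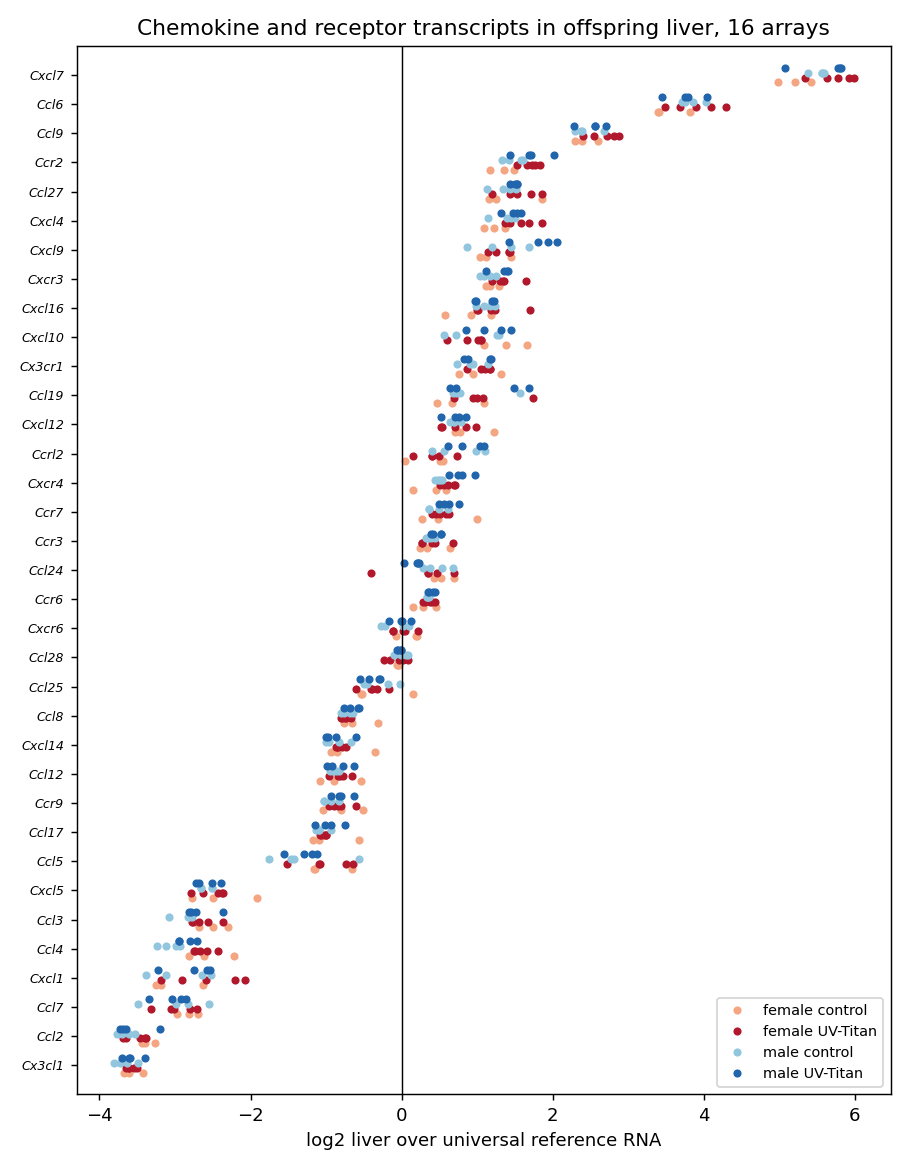
Log2 ratio of liver over reference RNA (x axis) on each of the 16 arrays for 35 of the 36 tested genes (y axis, ordered by mean ratio), with the 4 groups in colours. The points of the groups lie together for nearly every gene, whose means run from -3.60 for Cx3cl1 to 5.55 for Cxcl7.

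The CXC ligands Cxcl4 and Cxcl7 are now named Pf4 (platelet factor 4) and Ppbp (pro-platelet basic protein), and their genes are neighbours. In RefSeq's annotation of GRCm38.p6, Ppbp spans chr5:90768518-90770063 and Pf4 spans chr5:90772435-90773383, on the same strand. Ccl6 and Ccl9, CC ligands of myeloid cells, lie close together on chromosome 11. The 250 bases before the annotated start of each are shown because these genes also varied together between the arrays, as given further on. Capitals mark CACTTCC, a form of the site that ETS factors bind, which was chosen after the sequences were seen and searched on both strands.
Cxcl4 (chr5:90772185-90772434, plus strand): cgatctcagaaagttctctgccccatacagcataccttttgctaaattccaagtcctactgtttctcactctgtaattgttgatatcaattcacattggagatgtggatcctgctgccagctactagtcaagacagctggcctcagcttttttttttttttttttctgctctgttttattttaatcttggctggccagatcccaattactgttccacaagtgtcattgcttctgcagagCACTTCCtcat
Cxcl7 (chr5:90768268-90768517, plus strand): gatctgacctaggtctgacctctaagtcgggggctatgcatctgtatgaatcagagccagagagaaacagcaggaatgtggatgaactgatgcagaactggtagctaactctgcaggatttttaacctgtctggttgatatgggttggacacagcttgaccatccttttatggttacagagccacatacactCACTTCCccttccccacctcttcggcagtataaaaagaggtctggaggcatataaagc
Ccl6 (chr11:83593088-83593337, minus strand): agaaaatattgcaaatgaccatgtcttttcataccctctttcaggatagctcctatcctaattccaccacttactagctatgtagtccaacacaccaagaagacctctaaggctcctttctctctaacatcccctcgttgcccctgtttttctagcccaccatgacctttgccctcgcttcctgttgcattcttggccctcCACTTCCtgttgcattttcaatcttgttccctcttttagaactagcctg
Ccl9 (chr11:83578637-83578886, minus strand): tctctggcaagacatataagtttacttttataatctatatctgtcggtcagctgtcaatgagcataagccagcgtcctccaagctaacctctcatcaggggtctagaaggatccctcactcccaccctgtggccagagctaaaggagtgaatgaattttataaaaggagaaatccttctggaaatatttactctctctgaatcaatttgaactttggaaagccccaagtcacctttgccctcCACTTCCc
The motif began 11 bases before the start in Cxcl4, 58 in Cxcl7, 49 in Ccl6 and 8 in Ccl9. It was present in 8 of the 37 family members with a promoter in the RefSeq table, and in 8.55% of 32851 promoters of that length. AGATAA, a form of the site that GATA factors bind, was searched likewise and was in 8 of the 37, Ccr2 and Cxcl10 among them but none of these 4, and in 9.99% of all promoters. A match of letters is a description and not a binding site.

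In females, no gene of the family passed the test. The smallest p-values belonged to the platelet chemokines Cxcl4 and Cxcl7 and the monocyte receptor Ccr2, with higher means after maternal UV-Titan, and to Cxcl10 with a lower mean. In limma's fit across all genes, with p-values adjusted by Benjamini-Hochberg over all of them, 0 of 36 had an adjusted p under 0.05, as had 0 of 18849 genes tested (0%). At an unadjusted p under 0.05 there were 6 with a higher mean, where 5.46% of all genes were, and 1 with a lower mean, where 1.27% were. Means were higher for 18 of 36, against 58.7% of all genes tested, and the median difference was -0.0054 log2, against 0.021 over all genes. The family's median depended on 1 mouse: without control female 25 it was 0.085 log2.

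Values below are in the order of mice 25, 35 and 40 for control females, 2, 8, 10, 16 and 21 for UV-Titan females, 31, 33, 41 and 43 for control males, and 3, 4, 5 and 17 for UV-Titan males. Cxcl4, which platelets release and which binds heparin-like chains, had log2 ratios of 1.23, 1.36 and 1.09 in control females and 1.69, 1.86, 1.58, 1.37 and 1.44 in UV-Titan females. All 5 UV-Titan females lay above all 3 control females. The difference was 0.36 ± 0.11 log2 (SE), with an adjusted p of 0.621 in limma. It was 0.31 with slide as a block and 0.49, 0.32 and 0.15 on the 3 slides carrying control as well as UV-Titan females. Read from the liver channel alone, normalised between arrays, it was 0.31 and the groups overlapped. Each of the 3 slides held 1 control and 1 UV-Titan female, so every value within a slide is 1 mouse minus 1 mouse. UV-Titan females 8 and 21 were on none of them.

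Cxcl7, which is cut to a neutrophil attractant once platelets release it, had log2 ratios of 4.98, 5.43 and 5.20 in control females and 5.78, 5.92, 5.98, 5.34 and 5.63 in UV-Titan females. Control female 35 lay above UV-Titan female 16, so the groups overlapped. The difference was 0.53 ± 0.17 log2 (adjusted p = 0.640 in limma), 0.45 with slide as a block and 0.78, 0.35 and 0.36 within slides. The reference channel moved by -0.16 log2 for this probe. The liver channel alone gave 0.33 log2, and there every UV-Titan female lay above every control female. That held for 1 of the 36 genes in that channel, where 1.07% of all genes did so.

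Ccr2, the receptor through which Ccl2 and Ccl7 call monocytes out of the bone marrow, had log2 ratios of 1.18, 1.49 and 1.36 in control females and 1.72, 1.76, 1.83, 1.52 and 1.66 in UV-Titan females. All 5 UV-Titan females lay above all 3 control females. The difference was 0.36 ± 0.11 log2 (adjusted p = 0.640 in limma), 0.32 with slide as a block, 0.47, 0.24 and 0.35 within slides, and 0.26 in the liver channel alone. The gene's other probe, well above background in liver on 0 arrays, gave 0.094.

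Cxcl10 is a ligand of Cxcr3 that interferon induces. It had log2 ratios of 1.09, 1.66 and 1.38 in control females and 1.05, 1.01, 0.86, 0.59 and 1.05 in UV-Titan females, and every UV-Titan female lay below every control female. The difference was -0.46 ± 0.18 log2 (adjusted p = 0.687 in limma), -0.54 with slide as a block, -0.52, -0.61 and -0.49 within slides, and -0.53 in the liver channel alone. There too the groups did not overlap, for this 1 of the 36 genes and for 1.28% of all genes with a lower mean. Cxcl9, the neighbouring gene with the same receptor and inducer, had log2 ratios of 1.12, 1.44 and 1.03 in control females and 1.15, 1.42, 1.25, 1.43 and 1.43 in UV-Titan females. Those groups overlapped and the difference was 0.14 ± 0.16 log2. The promoter of Cxcl10 is shown because it held both an interferon-type motif and an NF-kB-type motif, GAAANNGAA and GGGANNTTC, marked in capitals, chosen after the sequences were seen and searched on both strands.
Cxcl10 (chr5:92348890-92349139, minus strand, GRCm38.p6, RefSeq): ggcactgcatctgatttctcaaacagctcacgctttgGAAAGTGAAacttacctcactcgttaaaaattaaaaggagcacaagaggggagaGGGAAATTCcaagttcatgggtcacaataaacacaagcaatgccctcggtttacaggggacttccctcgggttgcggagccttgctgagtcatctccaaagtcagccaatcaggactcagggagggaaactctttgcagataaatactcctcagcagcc
The first began 213 and the second 159 bases before the start. GAAANNGAA was in 7 of the 37 family promoters (Ccl1, Ccl3, Ccl19, Ccr2, Cxcl9, Cxcl10 and Cxcl14) and in 7.13% of all. GGGANNTTC was in 6 (Ccl1, Ccr3, Cxcl1, Cxcl2, Cxcl9 and Cxcl10) and in 3.23% of all, so the promoters of Ccl1, Cxcl9 and Cxcl10 held both.

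The groups did not overlap for 2 of the 36 genes with a higher mean (Cxcl4 and Ccr2), where 3.21% of all genes did so, and for 1 with a lower mean (Cxcl10), where 1% did. Among the other genes, Cxcr4, the receptor of Cxcl12 that holds blood progenitors in their niche, had log2 ratios of 0.59, 0.15 and 0.45 in control females and 0.56, 0.69, 0.70, 0.50 and 0.61 in UV-Titan females. The difference was 0.22 ± 0.092 log2, but within slides 0.25, 0.42 and -0.084, and the gene's other probe gave 0.012. Cxcl12 had log2 ratios of 0.70, 1.22 and 0.77 in control females and 0.98, 0.85, 0.53, 0.71 and 0.52 in UV-Titan females, with a difference of -0.18 ± 0.12. Its groups overlapped, and control female 35 was the highest female.

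Cxcl16, a membrane-bound ligand of Cxcr6, had log2 ratios of 0.57, 0.92 and 1.18 in control females and 1.19, 1.00, 1.70, 1.23 and 1.01 in UV-Titan females. UV-Titan female 10 was the highest female on this probe and on the gene's other probe, which gave a difference of 0.16 log2 against 0.34 ± 0.15 on the chosen one. Ccl6 had log2 ratios of 3.41, 3.82 and 3.40 in control females and 3.90, 4.30, 4.10, 3.69 and 3.49 in UV-Titan females, a difference of 0.35 ± 0.17 log2 and overlapping groups. Its reference channel moved by -0.16 log2 and its liver channel by 0.12. Ccl9 had log2 ratios of 2.39, 2.60 and 2.30 in control females and 2.72, 2.88, 2.81, 2.54 and 2.40 in UV-Titan females and a difference of 0.24 ± 0.12 log2.

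Ccl24, an eotaxin made by macrophages, had log2 ratios of 0.69, 0.43 and 0.53 in control females and 0.47, 0.70, -0.41, 0.35 and 0.35 in UV-Titan females. UV-Titan female 10 stood below all other mice, and the difference of -0.26 ± 0.17 log2 was -0.083 without that mouse. Ccl8 and Ccl28 were not well above background on any female array, so no female difference is given for them.

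Markers of other cells had higher means in the same females, with 0 genes of any list past the threshold in limma. Among all genes tested 58.7% had higher means there. All 11 measured markers of megakaryocytes and platelets, none of them a family member, had higher means with UV-Titan, with a median difference of 0.55 log2 in the ratio and 0.51 in the liver channel alone. Their mean per array, relative to the 16 arrays, was -0.49 to -0.30 in control females and 0.080 to 0.32 in UV-Titan females. All 18 granulocyte markers had higher means, with a median of 0.44 in the ratio and 0.37 in the liver channel. All 11 and all 18 were well above background in liver on every array. Macrophage markers were higher for 16 of 17, with a median of 0.18 in the ratio and 0.0038 in the liver channel, and hepatocyte markers for 13 of 13, with 0.53 and 0.051. The part of any of these in the values of Cxcl4, Cxcl7, Ccr2 and Cxcl10 was not tested.

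**Figure D2:**
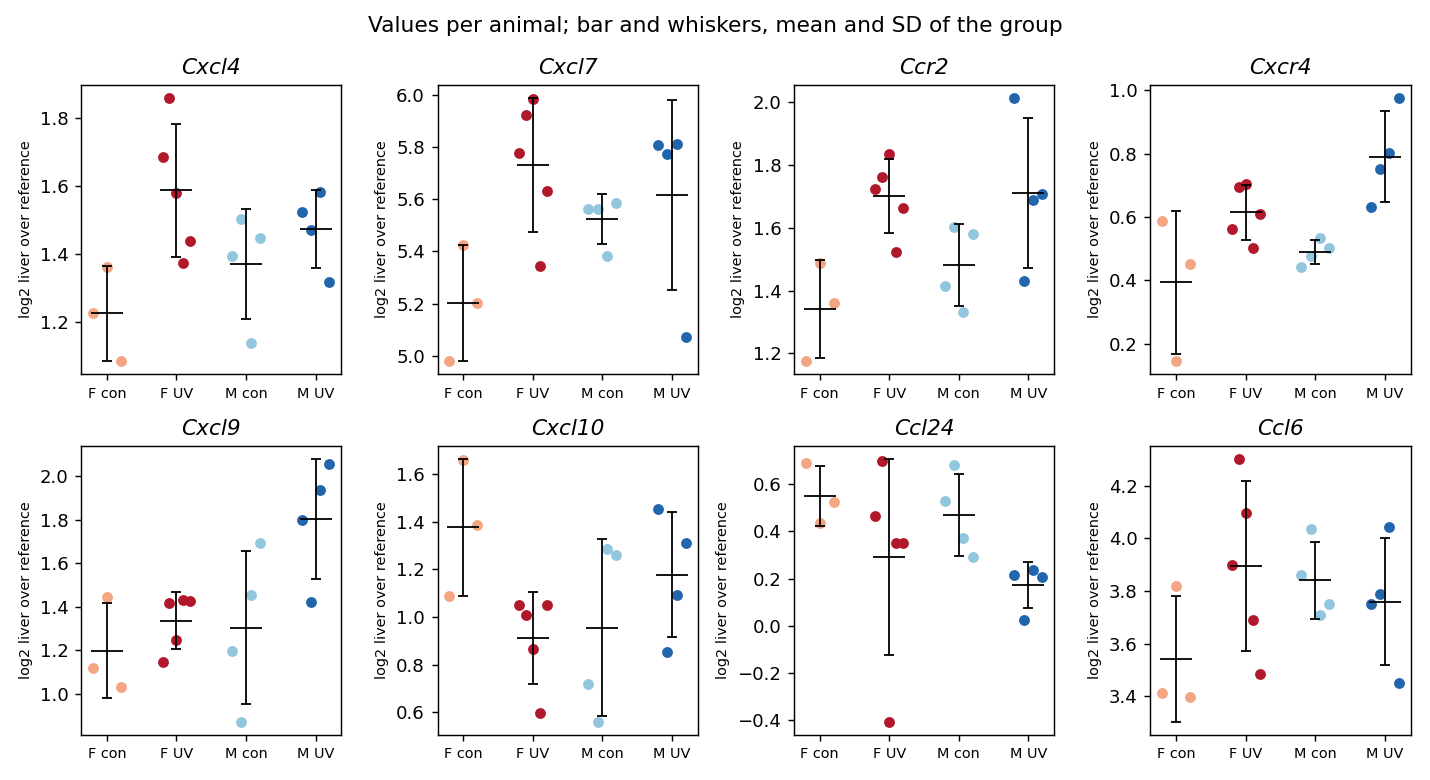
Log2 ratio of liver over reference (y axis, own scale in each panel) for each mouse in female control (F con), female UV-Titan (F UV), male control (M con) and male UV-Titan (M UV), with the group mean as a bar and the SD as whiskers, for 8 genes. The UV-Titan females lie above the control females for Cxcl4 and Ccr2 and below them for Cxcl10, and the UV-Titan males lie above the control males for Cxcr4 and below them for Ccl24.

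In males, most means were higher with UV-Titan, and again no gene passed the test. Cxcr4 and the interferon-induced Cxcl9 had the smallest p-values, both with higher means after maternal UV-Titan, and all 11 tested receptors had a higher mean than in controls. In limma's fit 0 of 36 had an adjusted p under 0.05, as had 0 of 18849 genes tested (0%). At an unadjusted p under 0.05 there were 2 with a higher mean, where 3.15% of all genes were, and 0 with a lower mean, where 1.8% were. Means were higher for 30 of 36, against 56.7% of all genes, and the median difference was 0.090 log2, against 0.016 over all genes. Without male controls 31 and 33 means were higher for 28 of 36, against 57.6% of all genes.

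Cxcr4 had log2 ratios of 0.44, 0.48, 0.53 and 0.50 in control males and 0.63, 0.75, 0.80 and 0.97 in UV-Titan males, and all 4 UV-Titan males lay above all 4 control males. The difference was 0.30 ± 0.089 log2 (adjusted p = 0.950 in limma), 0.29 with slide as a block, 0.13, 0.36 and 0.22 on the 3 slides carrying control as well as UV-Titan males, and 0.37 in the liver channel alone. The gene's other probe, well above background on all 16 arrays too, gave 0.0042. The 2 probes thus gave different values for the same gene on the same arrays. Each of the 3 slides held 1 control and 1 UV-Titan male, so male values within a slide are 1 mouse minus 1 mouse. Male control 33 and UV-Titan male 17 were on none of them.

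Cxcl9 had log2 ratios of 1.20, 0.87, 1.45 and 1.69 in control males and 1.80, 1.42, 1.94 and 2.06 in UV-Titan males, with UV-Titan male 4 inside the control range. The difference was 0.50 ± 0.16 log2 (adjusted p = 0.950 in limma), 0.41 with slide as a block, and 0.11, 0.74 and -0.035 within slides. Without male controls 31 and 33, which carried the pancreas markers and had the lowest Cxcl9 of the 8 males, it was 0.23. Ifng, the interferon that induces Cxcl9, differed by 0.24 ± 0.10 log2 in the same males (adjusted p = 0.950 in limma). It was 1 of 22 tested inducers of chemokine genes, whose median difference in males was 0.040 log2. The part of Ifng in the values of Cxcl9 was not tested. The receptor Cxcr3 had log2 ratios of 1.25, 1.04, 1.09 and 1.17 in control males and 1.39, 1.35, 1.41 and 1.12 in UV-Titan males and a difference of 0.18 ± 0.091 log2. Cxcl10 had log2 ratios of 0.72, 0.56, 1.29 and 1.26 in control males and 1.45, 0.85, 1.09 and 1.31 in UV-Titan males and a difference of 0.22 ± 0.18, which turned to -0.095 without male controls 31 and 33. The groups overlapped for both genes. In females Cxcr3 had 1.12, 1.17 and 1.30 in control females and 1.30, 1.64, 1.34, 1.20 and 1.35 in UV-Titan females and a difference of 0.17 ± 0.094.

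Ccr2 had log2 ratios of 1.42, 1.60, 1.33 and 1.58 in control males and 2.01, 1.43, 1.69 and 1.71 in UV-Titan males and a difference of 0.23 ± 0.11 log2 (adjusted p = 0.950 in limma). The gene's other probe, well above background in liver on 0 arrays, gave 0.010.

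Ccl24 had log2 ratios of 0.53, 0.68, 0.37 and 0.29 in control males and 0.22, 0.027, 0.24 and 0.21 in UV-Titan males, and every UV-Titan male lay below every control male. The difference was -0.30 ± 0.17 log2 (adjusted p = 0.954 in limma), -0.16 without male controls 31 and 33, and -0.074, -0.29 and -0.35 within slides. The gene's other probe gave -0.28. Male groups did not overlap for 1 of the 36 genes with a higher mean (Cxcr4), where 1.9% of all genes did so, and for 1 with a lower mean (Ccl24), where 1.08% did.

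The platelet chemokines in males depended on the channel read. Cxcl4 had log2 ratios of 1.39, 1.50, 1.14 and 1.45 in control males and 1.52, 1.47, 1.58 and 1.32 in UV-Titan males and a difference of 0.10 ± 0.11 log2, and Cxcl7 had 5.56, 5.56, 5.38 and 5.59 in control males and 5.81, 5.78, 5.81 and 5.07 in UV-Titan males and a difference of 0.092 ± 0.16. Both overlapped between groups as ratios. Without UV-Titan male 5 the differences were 0.066 and 0.027, and without male controls 31 and 33 that of Cxcl4 was 0.18. The liver channel alone gave 0.16 for Cxcl4 and 0.29 for Cxcl7, and there all 4 UV-Titan males lay above all 4 control males for both genes. The liver-channel groups did not overlap for 3 of the 36 genes with a higher mean (Cxcr4, Cxcl4 and Cxcl7), where 0.934% of all genes did so, and for 1 with a lower mean (Ccl24), where 0.897% did. The reference channel moved by 0.23 log2 for Cxcl7. All 11 platelet markers had higher means in UV-Titan males, where 56.7% of all genes did. Their median difference was 0.18 in the ratio and 0.17 in the liver channel, and their part in the values of Cxcl4 and Cxcl7 was not tested.

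Ccl6 had log2 ratios of 3.86, 4.04, 3.71 and 3.75 in control males and 3.75, 3.79, 4.04 and 3.45 in UV-Titan males in males and a difference of -0.081 ± 0.16 log2, and Ccl9 had 2.30, 2.37, 2.39 and 2.68 in control males and 2.56, 2.56, 2.71 and 2.28 in UV-Titan males and a difference of 0.091 ± 0.12. Both turned without male controls 31 and 33, to 0.028 for Ccl6 and -0.012 for Ccl9, and without UV-Titan male 5 they were -0.18 and 0.031. Ccl25, the thymus and gut ligand of Ccr9, had log2 ratios of -0.027, -0.46, -0.50 and -0.19 in control males and -0.44, -0.28, -0.55 and -0.29 in UV-Titan males and a difference of -0.098 ± 0.14, and in females -0.53, 0.15 and -0.53 in control females and -0.17, -0.40, -0.39, -0.33 and -0.60 in UV-Titan females. The male difference of Ccl25 was -0.049 without male controls 31 and 33 and -0.044 without UV-Titan male 5. On the gene's other probes it was 0.042 and -0.020, and these probes did not vary with the chosen one. The ratios on the chosen probes overlapped between the groups for all 3 genes. Ccl28, a mucosal ligand of Ccr10, and Ccl8, a monocyte attractant, were each well above background on 1 control and 2 UV-Titan male arrays. Ccl28 had log2 ratios of -0.10, -0.014, 0.090 and 0.064 in control males and -0.044, -0.056, -0.011 and -0.0037 in UV-Titan males, and Ccl8 of -0.76, -0.81, -0.64 and -0.68 in control males and -0.69, -0.77, -0.56 and -0.57 in UV-Titan males, with overlapping groups. Cxcl12 had 0.64, 0.69, 0.70 and 0.79 in control males and 0.76, 0.52, 0.71 and 0.85 in UV-Titan males and a difference of 0.0081 ± 0.12, and Cxcl16 had 0.99, 1.23, 1.16 and 1.09 in control males and 1.19, 1.23, 0.98 and 0.98 in UV-Titan males and a difference of -0.023 ± 0.14. Both overlapped between the male groups. Cxcl12 was -0.032 without male controls 31 and 33, and Cxcl16 0.017 without UV-Titan male 5.

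With both sexes averaged, 0 of 36 passed in limma, as did 0 of 18849 genes tested (0%), with 6 higher (5.57% of all genes) and 1 lower (1.53%) at an unadjusted p under 0.05. Means were higher for 24 of 36, against 60.6% of all genes. Cxcr4 was 0.26 ± 0.064 log2 higher (adjusted p = 0.285 in limma) on its chosen probe, and 0.13 as the mean of both probes. Ccr2 was 0.29 ± 0.079 higher (adjusted p = 0.329). Cxcl4, Cxcl9, Cxcr3 and Cxcl7 had differences of 0.23 ± 0.077, 0.32 ± 0.11, 0.18 ± 0.065 and 0.31 ± 0.12, and Ccl24 one of -0.28 ± 0.12. Without male controls 31 and 33 that of Cxcl9 was 0.18. In the liver channel alone Cxcl7 had the smallest p of the family, with 0.31 log2 (adjusted p = 0.639 in limma).

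The female difference minus the male difference tests whether the sexes responded unequally. Again 0 of 36 passed in limma, as did 0 of 18849 genes tested (0%), with 0 higher (2.57% of all genes) and 1 lower (1.72%) at an unadjusted p under 0.05. That gene was Cxcl10, lower in UV-Titan females and higher in UV-Titan males than in controls, with -0.69 ± 0.25 log2 between the differences (adjusted p = 0.980 in limma) and -0.37 without male controls 31 and 33, which had the lowest Cxcl10 of the males. Without them the male difference of -0.095 had the same sign as the female one. Cxcl7 gave 0.44 ± 0.23, Ccl6 0.43 ± 0.23 and Cxcl16 0.36 ± 0.20. Ccl3 gave -0.34 ± 0.17 and Ccl4 -0.30 ± 0.16.

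Between the sexes, irrespective of exposure, the inflammatory CC ligands Ccl2, Ccl3 and Ccl4 had lower means in males and the receptor-like Ccrl2 and Cxcl9 higher means. No member passed in limma, while 9 of 18849 genes tested did (0.0477%). At an unadjusted p under 0.05 there were 2 higher (2.32% of all genes) and 3 lower (1.95%). Ccl4, which macrophages and NK cells secrete, had log2 ratios of -2.21, -2.82 and -2.62 in control females and -2.73, -2.43, -2.67, -2.74 and -2.57 in UV-Titan females. In males they were -2.98, -3.24, -2.94 and -3.12 in control males and -2.95, -2.95, -2.81 and -2.71 in UV-Titan males. Of the 8 females 5 lay above every male, and the difference, male minus female, was -0.37 ± 0.082 log2 (adjusted p = 0.406 in limma). It was -0.23 in the liver channel alone.

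Ccrl2 binds chemerin without signalling. It had log2 ratios of 0.51, 0.045 and 0.55 in control females and 0.40, 0.16, 0.41, 0.49 and 0.73 in UV-Titan females, and in males 0.40, 0.98, 1.10 and 0.57 in control males and 0.62, 1.09, 0.80 and 1.03 in UV-Titan males. The difference was 0.42 ± 0.12 log2 (adjusted p = 0.977 in limma), and the ranges of the sexes overlapped. Ccl3, another inflammatory ligand of macrophages, had log2 ratios of -2.50, -2.29 and -2.69 in control females and -2.57, -2.68, -2.78, -2.36 and -2.76 in UV-Titan females, and in males -2.78, -3.08, -2.81 and -2.83 in control males and -2.81, -2.72, -2.79 and -2.37 in UV-Titan males. It was -0.21 ± 0.084 log2 in males minus females. Ccl2, the main ligand of Ccr2, had -3.40, -3.27 and -3.44 in control females and -3.65, -3.69, -3.40, -3.39 and -3.47 in UV-Titan females, and in males -3.71, -3.77, -3.54 and -3.61 in control males and -3.68, -3.65, -3.73 and -3.20 in UV-Titan males, a difference of -0.17 ± 0.077. UV-Titan male 17 was the highest male for both, and the sexes overlapped.

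By role, receptors, with Ccrl2 counted among them, had a higher mean with UV-Titan for 8 of 11 in females and 11 of 11 in males. Their median differences were 0.070 and 0.15 log2. CXC ligands were higher for 5 of 9 and 8 of 9 (6 of 9 without male controls 31 and 33), with medians of 0.14 and 0.092. CC ligands were higher for 5 of 15 and 10 of 15, with medians of -0.075 and 0.077. Over all genes tested the mean was higher for 58.7% in females and 56.7% in males. Cx3cl1, whose membrane-anchored form holds Cx3cr1-bearing monocytes to endothelium, differed by -0.013 ± 0.084 in females and 0.088 ± 0.082 in males, and Cx3cr1 by 0.069 ± 0.13 and 0.084 ± 0.12. Cx3cl1 had log2 ratios of -3.67, -3.43 and -3.61 in control females and -3.65, -3.61, -3.50, -3.55 and -3.61 in UV-Titan females, and in males -3.49, -3.81, -3.63 and -3.73 in control males and -3.60, -3.61, -3.40 and -3.70 in UV-Titan males. Cx3cr1 had 0.75, 0.95 and 1.32 in control females and 1.17, 1.17, 0.87, 1.05 and 1.11 in UV-Titan females, and in males 0.94, 1.15, 0.90 and 0.73 in control males and 0.82, 1.19, 1.17 and 0.88 in UV-Titan males. For both genes the exposure groups overlapped in each sex. In males Cx3cl1 differed by 0.028 without UV-Titan male 5, and Cx3cr1 by 0.033 without it and 0.20 without male controls 31 and 33. The 36 95% intervals all lay within 1 log2 of 0 in both sexes, and within 0.5 log2 for 24 genes in females and 31 in males. A difference of 1 log2, which is a doubling, was thus outside every interval on the scale of these ratios. For genes near background, such as Ccl8 and Ccl28, well above it on 3 arrays, the offset of 50 shrinks the ratios. The intervals do not exclude a doubling of the transcript of such genes.

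**Figure D3:**
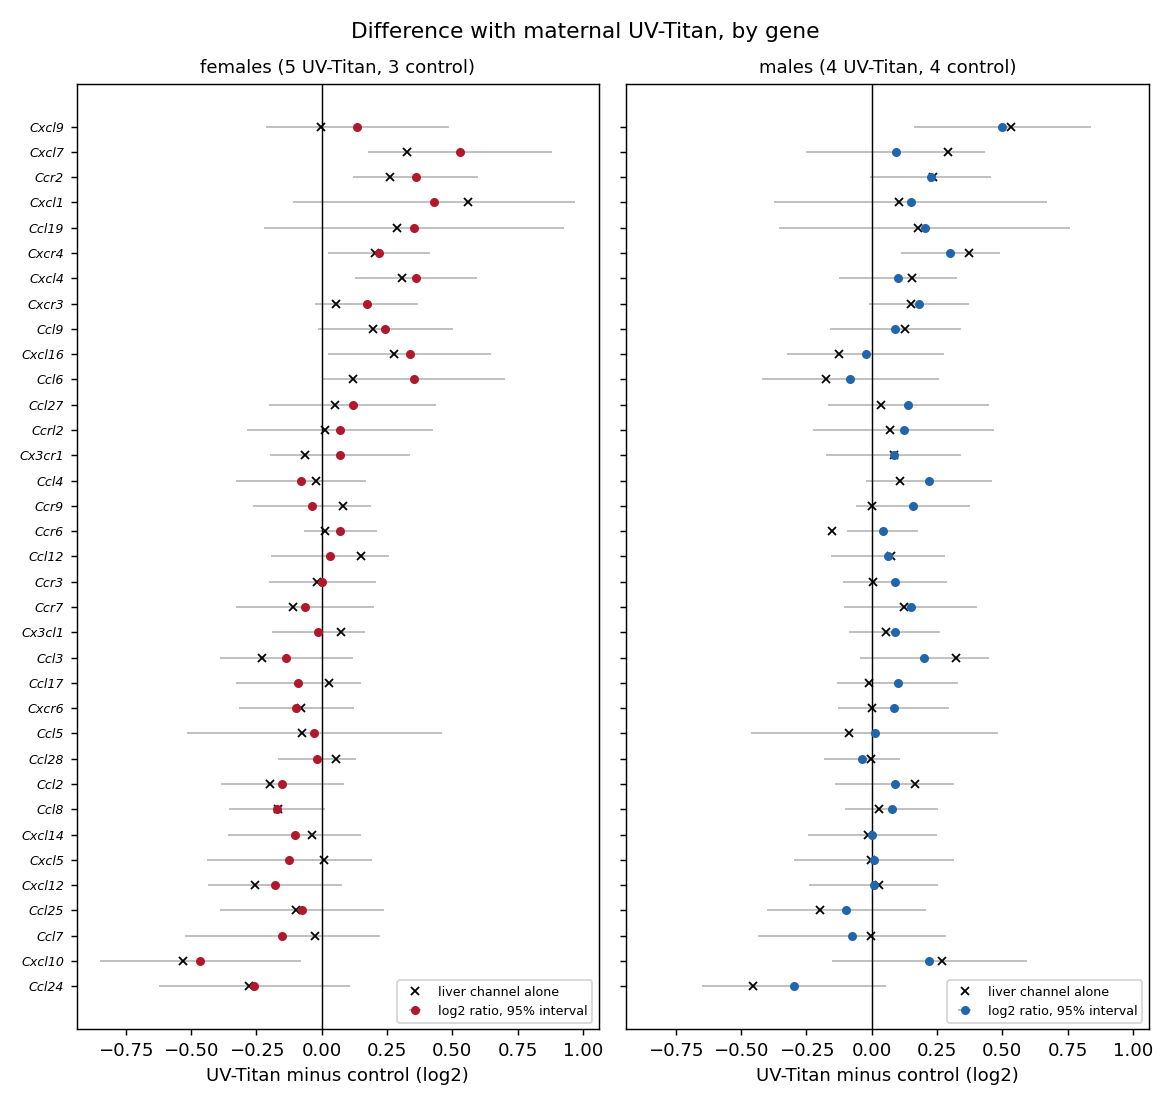
Difference between UV-Titan and control (x axis, log2) for 35 of the 36 tested genes in females and in males, as the ratio with its 95% interval (coloured points and grey lines) and as the liver channel alone (crosses). The differences run from -0.46 for Cxcl10 to 0.53 for Cxcl7 in females, and from -0.30 for Ccl24 to 0.50 for Cxcl9 in males.

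The ratio and the liver channel alone had the same sign for 27 of 36 genes in females and 31 of 36 in males. In the liver channel alone 0 of 36 passed in limma in either sex, as did 0 of 18849 genes tested (0%). There the unadjusted p was under 0.05 for 4 higher and 2 lower in females, where 1.57% of all genes were higher and 1.57% lower, and for 4 higher and 1 lower in males, where 1.53% and 1.71% were. Cxcl1, the neutrophil attractant whose receptor is Cxcr2, was 0.56 log2 higher in UV-Titan females in that channel and 0.43 ± 0.25 as a ratio. Its ratios were -2.63, -3.18 and -3.26 in control females and -2.91, -2.20, -2.59, -2.07 and -3.19 in UV-Titan females, and UV-Titan females 8, 10 and 16 lay above all controls while 2 and 21 did not. In males the ratios were -2.53, -3.12, -3.39 and -2.65 in control males and -2.58, -2.54, -3.22 and -2.75 in UV-Titan males, with a difference of 0.15 ± 0.25, which was 0.25 without male controls 31 and 33 and 0.30 without UV-Titan male 5.

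Genes around the family were counted from lists of pathway genes, beside 58.7% of all genes with a higher mean in females and 56.7% in males. Among chemokine genes outside the naming rule, 12 of 13 were tested, 0 passed in either sex in limma, and 9 had higher means in each sex. Cxcr2, the neutrophil receptor of Cxcl1 and Cxcl7, differed by 0.43 ± 0.15 log2 in females (adjusted p = 0.653 in limma) and 0.32 ± 0.14 in males. The liver channel alone gave 0.36 in females and 0.084 in males, and Cxcr2 is also 1 of the granulocyte markers. Ackr1, which binds chemokines on red cells and venules, differed by 0.32 ± 0.17 in males. Of 36 genes for signalling below the receptors, 29 had higher means in females and 27 in males, with medians of 0.11 and 0.080 log2, and 0 passed. Rgs18, which damps receptor signals in platelets, differed by 0.40 ± 0.12 and 0.31 ± 0.12 log2, and Rac2, the GTPase of leukocyte migration, by 0.15 ± 0.053 and 0.15 ± 0.051. For Rac2 the liver channel alone gave 0.057 and 0.047.

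Proteases that trim chemokines were tested for 8 of 9 genes, with 6 higher in females and 5 in males and 0 passing. Here too the shares over all genes were 58.7% in females and 56.7% in males. Mmp8, the neutrophil collagenase, differed by 0.63 ± 0.13 log2 in females (adjusted p = 0.210 in limma) and 0.35 ± 0.12 in males, and it is also 1 of the granulocyte markers. Cytokines and transcription factors that induce chemokine genes were tested for 22 of 24, with 14 higher in each sex and 0 passing. Nfkb1, the p50 subunit of NF-kB, differed by 0.24 ± 0.11 and 0.25 ± 0.11 log2. The median of the inducers was 0.019 in females and 0.040 in males, against 0.021 and 0.016 over all genes.

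The spread between mice of a group differed among the members. The median within-group SD was 0.179 log2 over the 36 genes and 0.127 over all genes tested, and 0.190 and 0.165 in the liver channel alone, a difference that was not tested. It was 0.426 for Ccl19, the ligand that brings Ccr7-bearing dendritic cells and T cells to lymphoid tissue, 0.399 for Cxcl1, 0.360 for Ccl5 and 0.279 for Cxcl10. It was 0.0773 for Ccr6 and 0.114 for Cx3cl1. Ccl5, a ligand made by T and NK cells, had log2 ratios of -1.15, -1.16 and -0.65 in control females and -1.52, -0.65, -1.09, -1.08 and -0.73 in UV-Titan females, and in males -0.57, -1.75, -1.47 and -1.43 in control males and -1.19, -1.12, -1.56 and -1.30 in UV-Titan males. Control male 31 was the highest of the 16 and control male 33 the lowest.

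For tested genes with another probe well above background in liver on most arrays, the probes were compared over the same arrays. The other probes of Ccr2 and Cx3cl1 were well above background in liver on 0 arrays. Those of Cx3cr1 and Ccr3 were so on 3 and 4. The values of these genes thus rest on the chosen probe. For Cx3cl1 the other probe stood at -0.48 log2 against the reference, and the chosen one at -3.60. Over the 16 arrays the 2 probes of Ccl24 had a Pearson r of 0.98, those of Ccl5 of 0.97, of Ccl19 of 0.94 and of Ccrl2 of 0.89, as a description over arrays that share their libraries. Those of Ccl7, Cxcl16, Cxcl12 and Cxcr4 had 0.53, 0.51, 0.49 and 0.46. Ccl25 had further probes well above background on 14 and 15 arrays, with r of -0.10 and -0.074 to the chosen one. They stood at 0.22 and -0.42 log2 against the reference, and the chosen one at -0.35, so the values of Ccl25 are uncertain. The 2 probes of Cxcl12 stood at 0.75 and -1.02 log2 against the reference, and which transcript each one reads was not determined. Ccl2 had 10 spots per array, whose median SD within an array was 0.0465 log2, against an SD of 0.175 between arrays. Ccl27, now Ccl27a, has near-identical copies in the mouse genome, so its values are uncertain as to the gene. Its log2 ratios were 1.16, 1.85 and 1.26 in control females and 1.43, 1.85, 1.52, 1.71 and 1.19 in UV-Titan females, and in males 1.34, 1.14, 1.44 and 1.51 in control males and 1.50, 1.53, 1.52 and 1.43 in UV-Titan males, with overlapping groups. Ccl7, a ligand of Ccr2 beside Ccl2, had -2.70, -2.82 and -2.98 in control females and -2.71, -3.02, -2.81, -3.32 and -3.05 in UV-Titan females, and in males -2.82, -2.98, -2.55 and -3.49 in control males and -3.35, -2.85, -2.92 and -3.04 in UV-Titan males, again with overlapping groups.

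**Figure D4:**
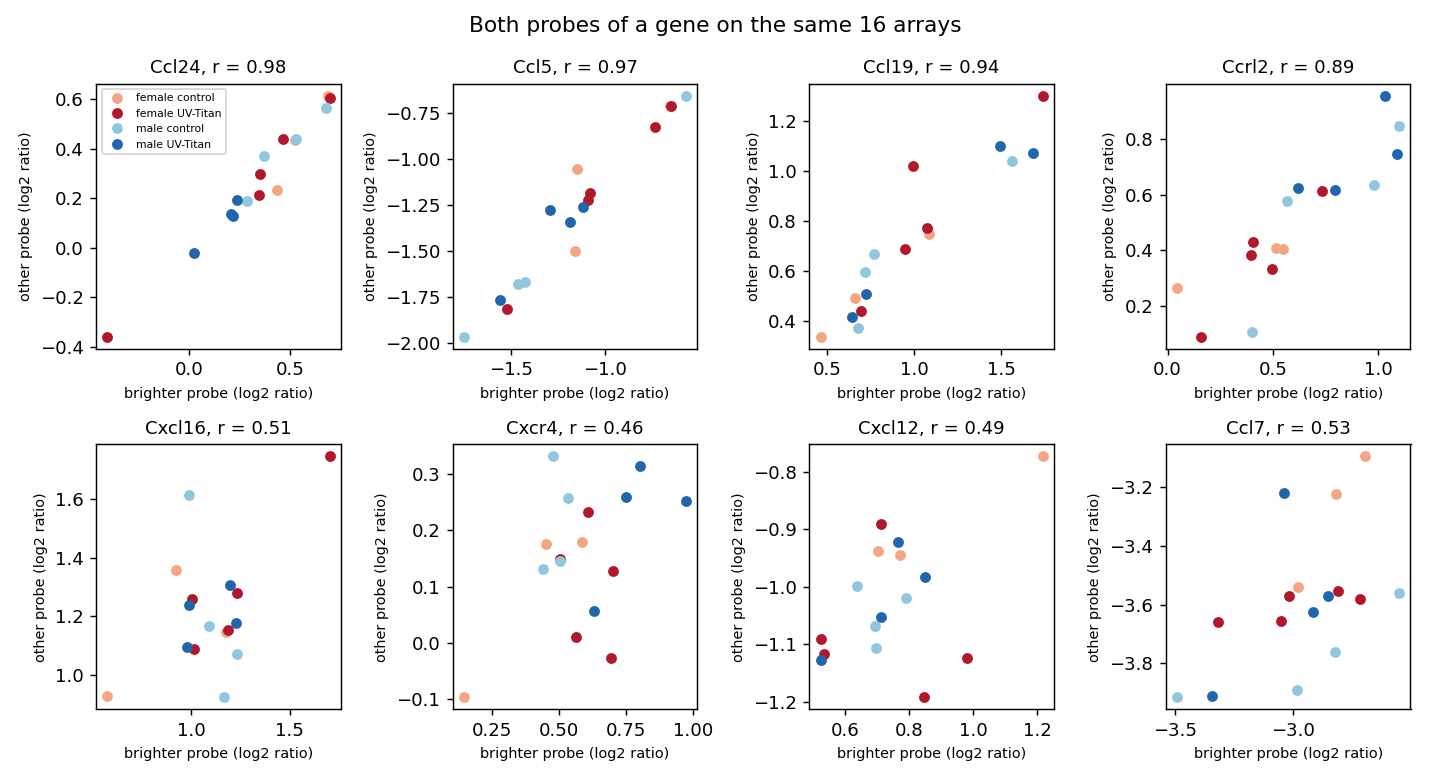
Log2 ratio on the chosen, brighter probe (x axis) against another probe of the same gene (y axis) on the 16 arrays, for 8 genes, coloured by group. The probes vary together for Ccl24 (r = 0.98), Ccl5, Ccl19 and Ccrl2, and scatter for Cxcl16, Cxcr4 (r = 0.46), Cxcl12 and Ccl7.

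Across the 16 arrays the platelet and myeloid ligands varied together. Of 630 pairs of tested members, 15 had a Pearson r above 0.7 and the median was 0.033, as a description over arrays that share groups and the reference. Cxcl4 and Cxcl7 had 0.82, Ccl6 and Cxcl4 0.81, Ccl6 and Cxcl7 0.80, Ccl9 and Cxcl4 0.78, Ccl9 and Cxcl7 0.75 and Ccl6 and Ccl9 0.73. In the liver channel alone the first pair kept 0.74, but Ccl6 with Cxcl7 had 0.12 and Ccl6 with Ccl9 0.20. Ccl2 and Ccl3 had 0.76 as ratios and 0.92 in the liver channel. Cxcl9 and Cxcl10, which share inducer and receptor, had 0.43 over all arrays and 0.67 once group means were removed.

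Outside the family, the genes whose ratio followed Cxcl4 most closely over the 16 arrays, out of 18813 compared, were Fes (r = 0.95), Pik3r6 (0.91) and Fut7 (0.90). Fes is a tyrosine kinase of myeloid cells, Pik3r6 a regulatory subunit of the kinase below chemokine receptors, and Fut7 a fucosyltransferase that makes selectin ligands. They differed by 0.25 ± 0.074, 0.22 ± 0.091 and 0.36 ± 0.11 log2 in females (adjusted p = 0.613, 0.688 and 0.613 in limma). In males they differed by 0.035 ± 0.072, 0.060 ± 0.088 and 0.16 ± 0.10. These genes were picked for following Cxcl4 on the same arrays, so female differences in its direction come with the choice and are no separate evidence. The mean of the 11 platelet markers had an r of 0.80 with Cxcl4 and 0.84 with Cxcl7, and that of the granulocyte markers 0.82 and 0.95. In the liver channel alone these were 0.64 and 0.84 for platelet markers and 0.59 and 0.78 for granulocyte markers. As ratios, Cxcl7 also varied with the mean of the hepatocyte markers, so such an r is not particular to platelets or granulocytes. That mean was lowest, -0.61 and -0.57, in UV-Titan male 17 and control female 25, which had the lowest Cxcl7, 5.07 and 4.98. In the liver channel alone the hepatocyte means of these mice were 0.031 and -0.074. Ccl5 had an r of 0.61 with the mean of the T and NK cell markers, 0.63 in the liver channel alone, and of -0.048 with that of the platelet markers.

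By position, 14 of the 49 genes had their probe on chromosome 11, 11 on chromosome 5 and 10 on chromosome 9, in the array's mm7 coordinates. The chromosome 11 group was mostly CC ligands, the chromosome 5 group CXC ligands and Ccl24, and the chromosome 9 group receptors. Means with UV-Titan were higher for 4 of 11 tested genes on chromosome 11 in females and 8 in males, for 4 of 7 and 6 of 7 on chromosome 5, and for 4 of 6 and 6 of 6 on chromosome 9. The shares over all genes tested were 58.7% in females and 56.7% in males, and no difference between chromosomes was tested.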

How the data were processed

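Each of 16 arrays was 1 offspring liver against a universal reference, on 5 slides scanned on 4 days, and groups came from the sample titles. The authors deposited, per array, the scanner's two-channel mean and background intensity values, a log10 ratio (Agilent Feature Extraction, per the labels' protocols) and marks for spots well above background or outlying, per the file headers. A further deposited table held log2 ratios, with a normalisation not given in the sources used here. At spots well above background in both channels on all 16 arrays, it followed log2 of red over green as computed here. There r was 0.992 to 0.997 and the slope 0.996 to 1.07. Over all spots but controls it was set against the deposited log10 ratio turned to log2. There r was 0.863 to 0.900 and the slope 0.551 to 0.606. Its column medians were -0.045 to -0.0375.

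Mean signals were background-corrected with normexp (offset 50) and loess-normalised within arrays, with control spots at weight 0 and the 90 to 135 outlier spots per array left out, in limma 3.58.1 under R 4.3.3. The liver channel alone was quantile-normalised between arrays. Spots of a probe were averaged and a gene was represented by its brightest probe in liver, by mean signal. A gene was tested where that probe was well above background in liver on at least 3 arrays. Current symbols came from RefSeq's GRCm38.p6 table, matched by accession for 44 of 49 members and 12199 of 18849 tested genes, and other names are the array's, which can be old. Promoters came from the same source.

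One limma model with 4 group means was fitted to all 16 arrays and all tested genes, tests were two-sided, p-values were adjusted by Benjamini-Hochberg over all genes, and the script was tested on simulated data. Every adjusted p in the text is limma's. The number of arrays limits the precision. Genes named in the text were, in each of the 5 contrasts, the up to 4 members per direction with the smallest p, the 6 highest and 4 lowest mean ratios, and a panel of 16 members, and from other lists up to 4 genes with the smallest p. One tested member is in the counts but is not reported here by name or drawn. Members, lists and rules were chosen with earlier results of these data known. Alternatives covered the measure, background correction, filter, probe choice, array weights, slide, scan day and left-out arrays.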

Additional observations from a re-analysis of the deposited data

Results flagged for a closer look

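In 78 groups of 4 or 5 mice, 5 held a mouse that stood apart from the rest of its group by Dixon's test at the 95% level, and chance gives about 5% of groups. All 5 were male. Cxcl7 had a log2 ratio of 5.38 in male control 41, against 5.56 to 5.59 in the other male controls. It had 5.07 in UV-Titan male 17, against 5.78 to 5.81 in the other UV-Titan males. Ccl2 had -3.20 in the same UV-Titan male 17, against -3.73 to -3.65. Ccl24 had 0.027 in UV-Titan male 4, against 0.21 to 0.24. Ccl3 had -3.08 in male control 33, against -2.83 to -2.78.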

How the results depend on the processing

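No family member passed the threshold under any alternative run in any of the 5 comparisons, with 1 array left out included. Counts over all genes moved from 0 with both sexes averaged to 1 without background correction, 6 with array weights, 1 with slide as a fixed block, 11 with slide as a random block and 10 with scan day as a fixed block, and 0 to 11 when 1 array was left out (11 without male control 43, 3 without female control 35, 1 without UV-Titan female 16 or 21). In females the count moved from 0 to 6 with array weights, 1 with slide or scan day as a fixed block, and 0 to 1 when 1 array was left out. In males it moved from 0 to 1 with Agilent's processed signals. Directions turned in some fits: in the median-centred liver channel Cxcl12 in females was 0.0089, Ccl28 in males 0.042 and Ccl7 over both sexes 0.0038. Ccr2, male minus female, was -0.059 with Agilent's processed signals and -0.011 without background correction. Ccl6 in males was 4.71e-06 with slide as a fixed block, 0.028 without male controls 31 and 33, and -0.18 to 0.021 when 1 array was left out. Without those controls Cxcl10 in males was -0.095 and Ccl9 -0.012. Directions also turned within single slides, with no test: on 1 slide each, Cxcl9 in males was -0.035, Ccl25 0.22 and Ccl28 0.093, and in females Cxcr4 was -0.084, Ccl24 0.032 and Cxcl12 0.0084, and on 2 slides Ccl6 in males was 0.18 and 0.079. The cause was not tested. No paired analysis was possible because no replicate number of the labels occurs in more than 1 group. Probes near background and groups of 3 to 5 mice limit what these arrays can show.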
